A study of Mus musculus with 18 samples.

Results

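The genes described here are 10 transcription factors that mark cardiac fibroblasts, drive their activation or are used in the epicardium, the cell layer that covers the heart: Tcf21, Tbx18, Wt1, Snai1, Snai2, Twist1, Scx, Sox9, Meox1 and Runx1. They were taken by symbol, and all 10 were found among the 24419 symbols of the expression table. RNA was measured in the left ventricle of 18 male C57BL/6 mice aged 8 weeks, all under sodium pentobarbital, in 6 groups of 3. The sham group served as control, and in the other 5 groups the proximal left anterior descending coronary artery was ligated to produce acute myocardial infarction (AMI), with infarcted tissue taken after 10 min, 1 h, 6 h, 24 h or 72 h. No allele or transgene was involved. The tissue was not sorted, so every value is an average over all cells of the piece, and fewer cells of a type and less RNA per cell cannot be told apart.

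The study followed these time points to describe the molecular course of early AMI. Cardiac fibroblasts derive largely from the epicardium during development, when epicardial cells lose their contacts and migrate into the muscle, a step called epithelial-mesenchymal transition (EMT). Tcf21, Tbx18 and Wt1 are the classical factors of the epicardium and its descendants, and Tcf21 stays on in resident fibroblasts. Snai1, Snai2 and Twist1 are the textbook EMT factors and repress cell adhesion genes. Scx and Sox9 direct tendon and cartilage programmes, Meox1 is a homeobox factor linked to fibroblast activation, and Runx1 is best known from blood formation and is also used in leukocytes. After infarction, resident fibroblasts divide, turn into matrix-producing cells and form the scar.

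Levels are FPKM (fragments mapped per kilobase of transcript and per unit of sequenced library), a scale adjusted for gene length and library size. In sham hearts the 10 factors were low: Meox1, at 4.49 FPKM ± 1.06 (SD, n = 3), and Tcf21, at 3.99 FPKM ± 0.524, had the highest means, and Runx1, at 0.263 FPKM ± 0.0598, had the lowest. Their sum was 17.4 to 21.7 FPKM in the sham mice and 112 to 122 FPKM at 72 h. Genes were tested when at least 1 mouse of the 18 reached 1 FPKM, which 13333 symbols did. All 10 factors passed this filter, but no sham mouse reached it for Runx1 or Sox9, so both passed through ligated mice alone. Fold changes are log2 differences of FPKM + 1, which understate the change of genes this low. A gene is called where the adjusted p of limma (Benjamini-Hochberg over all genes tested) is under 0.05. All comparisons with sham use the same 3 sham mice.

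Promoter sequences were matched in RefSeq (GRCm38.p6, 250 bases before to 50 after the start site) for 5 of the 10 factors, namely Snai1, Twist1, Tcf21, Tbx18 and Runx1. Those of Snai1, which was called from 6 h, of Twist1, called from 24 h, and of Tcf21, called at 72 h only, are given 5′ to 3′ on the gene's own strand, so that factors of different onset can be read side by side. Capitals mark E-boxes (CANNTG on either strand), the site type bound by bHLH factors such as Twist1, Scx and Tcf21. The Snail-type site CAGGTG is one kind of E-box, and it is read on both strands too. The windows are chr2:167537945-167538244 on the plus strand for Snai1, chr12:33957421-33957720 on the plus strand for Twist1 and chr10:22820094-22820393 on the minus strand for Tcf21.
Snai1: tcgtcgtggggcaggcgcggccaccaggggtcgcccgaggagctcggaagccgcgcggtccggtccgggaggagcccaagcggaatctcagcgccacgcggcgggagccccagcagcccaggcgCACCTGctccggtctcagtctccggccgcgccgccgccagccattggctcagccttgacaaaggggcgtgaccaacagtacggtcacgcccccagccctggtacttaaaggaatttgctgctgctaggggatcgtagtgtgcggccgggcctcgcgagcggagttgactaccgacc
Twist1: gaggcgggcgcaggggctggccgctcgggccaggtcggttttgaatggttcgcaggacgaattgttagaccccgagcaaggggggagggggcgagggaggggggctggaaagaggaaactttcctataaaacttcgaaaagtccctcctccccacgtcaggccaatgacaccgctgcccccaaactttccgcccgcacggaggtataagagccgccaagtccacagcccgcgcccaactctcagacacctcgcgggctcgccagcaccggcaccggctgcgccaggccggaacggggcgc
Tcf21: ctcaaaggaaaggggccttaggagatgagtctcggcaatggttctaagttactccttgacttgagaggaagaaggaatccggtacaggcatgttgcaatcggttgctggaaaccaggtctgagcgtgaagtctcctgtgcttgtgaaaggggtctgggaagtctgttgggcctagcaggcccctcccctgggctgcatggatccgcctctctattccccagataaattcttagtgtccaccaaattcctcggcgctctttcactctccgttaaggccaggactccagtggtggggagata

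The Snai1 window held 1 E-box, which began at position -126 from the start site, and this site was of the Snail type, the kind that Snai1 itself binds. The Twist1 and Tcf21 windows held no E-box, and the Twist1 window held 1 TATAAA. The Tbx18 window held 1 E-box. Of the 2 Runx1 windows, the upstream one, at chr16:92826025-92826324 on the minus strand, held 3 E-boxes, 1 of them of the Snail type, and 2 copies of the RUNX core TGTGGT, whereas the one at chr16:92697280-92697579 held none of these. Among 32851 RefSeq promoters of the same length, 72.3% held an E-box, 20.2% a Snail-type site, 16.8% a RUNX core and 13.6% a TATAAA. The AP-1 site TGACTCA, held by 5.20% of promoters, was in none of the 6 windows. The 3 printed windows were 70% (Snai1), 66% (Twist1) and 53.3% (Tcf21) G or C, beside a median of 52.7% over all promoters. These matches describe letters in a window and say nothing of whether a factor was bound.

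**Figure D1:**
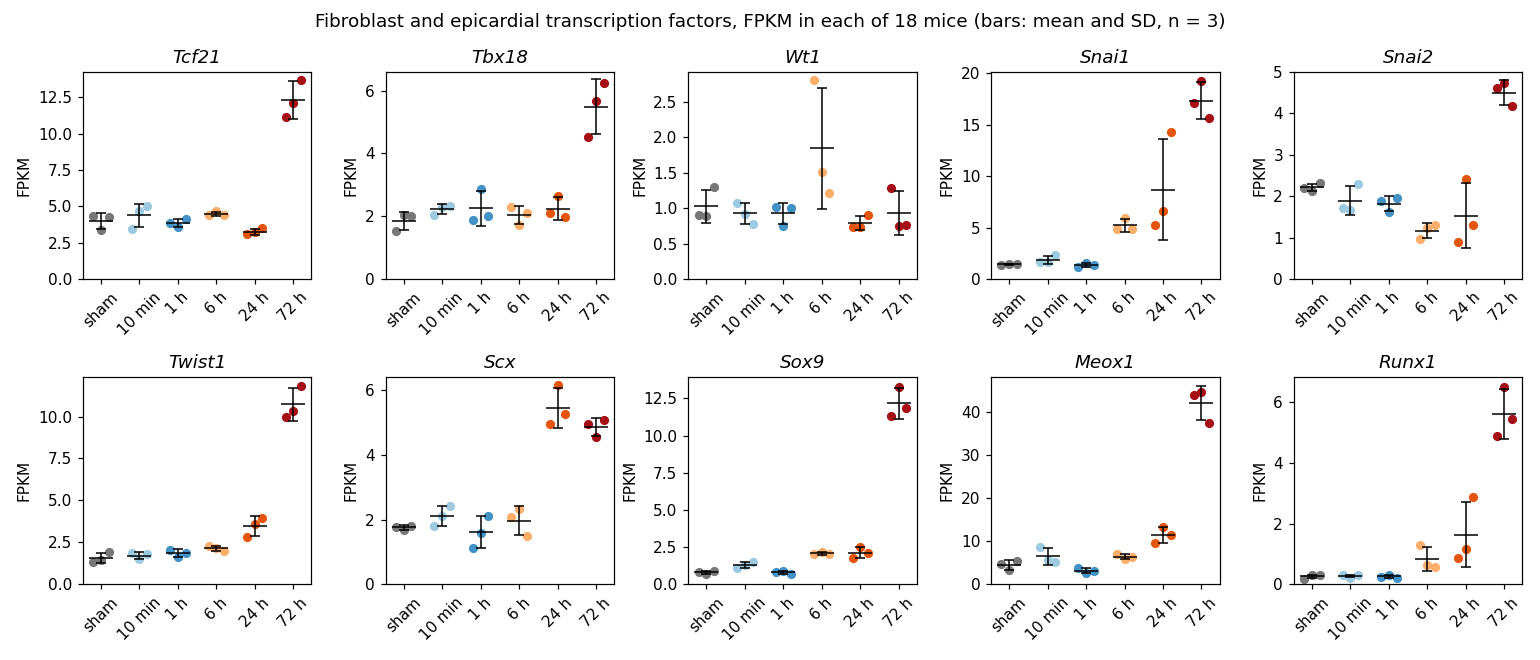
FPKM of each of the 10 factors (vertical axis, each panel on its own scale from 0) in each of the 18 mice (points), by group on the horizontal axis, with the mean and SD of 3 mice (black bars). In 8 panels the 72 h mice lie above all mice of every other group, whereas Scx was already as high at 24 h and Wt1 had its highest mean at 6 h.

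On GENCODE M21 (mm10) the genes lie on 7 chromosomes. Snai1 is at chr2:167538195-167542814, Wt1 at chr2:105126529-105173616, Tbx18 at chr9:87702800-87731260 and Tcf21 at chr10:22817281-22820174. Meox1 (chr11:101877510-101894374) and Sox9 (chr11:112782224-112787760) share a chromosome, as do Snai2 (chr16:14705852-14709385) and Runx1 (chr16:92601466-92826149). Twist1 is at chr12:33957671-33959829 and Scx at chr15:76457452-76459458. FPKM counts whole genes, so it holds no position within them.

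Few genes of any kind were called before 6 h, so the lack of early calls is not particular to the 10 factors. At 10 min none of the 10 was called higher or lower than in sham, where 0.248% of all genes tested were called higher and 0.0978% lower. At 1 h none was called either, with 0.669% of all genes higher and 0.0526% lower. Without adjustment, limma's p was under 0.05 for 1 factor at 10 min (Sox9) and for 2 at 1 h (Meox1 and Snai2). Some early levels lay apart from sham without a call. At 10 min Sox9, Snai1 and Tbx18 did not overlap with sham, at ratios of means of 1.61, 1.29 and 1.20. Meox1 stood at 1.45, with overlap. At 1 h only Snai2 did not overlap, at a ratio of 0.824. The shares of all genes without overlap, or with an unadjusted p under 0.05, were not counted. With 3 against 3 mice, a lack of overlap alone gives an exact permutation p no smaller than 0.1. These early counts are therefore not read as particular to the factors. The 10 factors summed to 22.0 to 24.0 FPKM at 10 min, above all sham mice, and to 17.5 to 18.5 FPKM at 1 h. The 10 min mice were at 4.38 FPKM ± 0.804 (SD, n = 3) for Tcf21, 1.64 to 2.35 FPKM for Snai1, 1.66 to 2.30 FPKM for Snai2 and 1.51 to 1.86 FPKM for Twist1. The 1 h mice were at 3.84 ± 0.271, 1.13 to 1.53, 1.62 to 1.96 and 1.61 to 2.07 FPKM for the same genes. Meox1 varied most, from 5.18 to 8.76 FPKM at 10 min and from 2.70 to 3.75 FPKM at 1 h. Scx ranged from 1.12 to 2.41 FPKM, Wt1 from 0.749 to 1.08 FPKM and Runx1 from 0.220 to 0.311 FPKM over these 6 mice.

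Calls began at 6 h. At that time 3 factors were called higher (Snai1, Sox9 and Runx1), beside 11.6% of all genes, and 1 was called lower (Snai2), beside 16.8%. By 24 h, 6 of the 10 were called higher (Snai1, Scx, Meox1, Runx1, Twist1 and Sox9), beside 26.2% of all genes, and 0 lower, beside 11.4%. At 72 h, 9 of the 10 were called higher, beside 53.1% of all genes, and 0 lower, beside 24.2%. The exception was Wt1. The median log2 fold change of the 10 factors was 0.38 at 6 h, 0.79 at 24 h and 1.81 at 72 h, where the median of all genes tested was -0.08, 0.13 and 0.29.

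The successive time points differed as well. Between 6 h and 24 h, 2 factors rose (Scx and Meox1), beside 12.5% of all genes, and 0 fell, beside 1.94%. From 24 h to 72 h, 8 factors rose, all but Scx and Wt1, beside 29.7% of all genes, and 0 fell, beside 13.5%. The share of all calls that were higher depended on scaling. At 72 h against sham it was 68.7% on FPKM as deposited, 52.1% after median-of-ratios scaling and 42.5% after quantile normalization. The corresponding shares were 69.8%, 50.3% and 43.6% at 24 h, and 40.9%, 54.8% and 43.5% at 6 h. For 24 h against 6 h they were 86.6%, 52.3% and 57.3%, and for 72 h against 24 h 68.8%, 54.0% and 44.8%. Median-of-ratios scaling and quantile normalization moved the median over all genes tested, as a log2 fold change, from 0.13 to 0.01 and -0.06 at 24 h, and from 0.29 to 0.03 and -0.12 at 72 h. Under both, 9 factors were called higher at 72 h, and all 9 calls were kept. The smallest of these differences shrank most under quantile normalization, to 0.25 for Snai2, 0.57 for Scx and 0.66 for Tbx18 on the log2 scale.

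**Figure D2:**
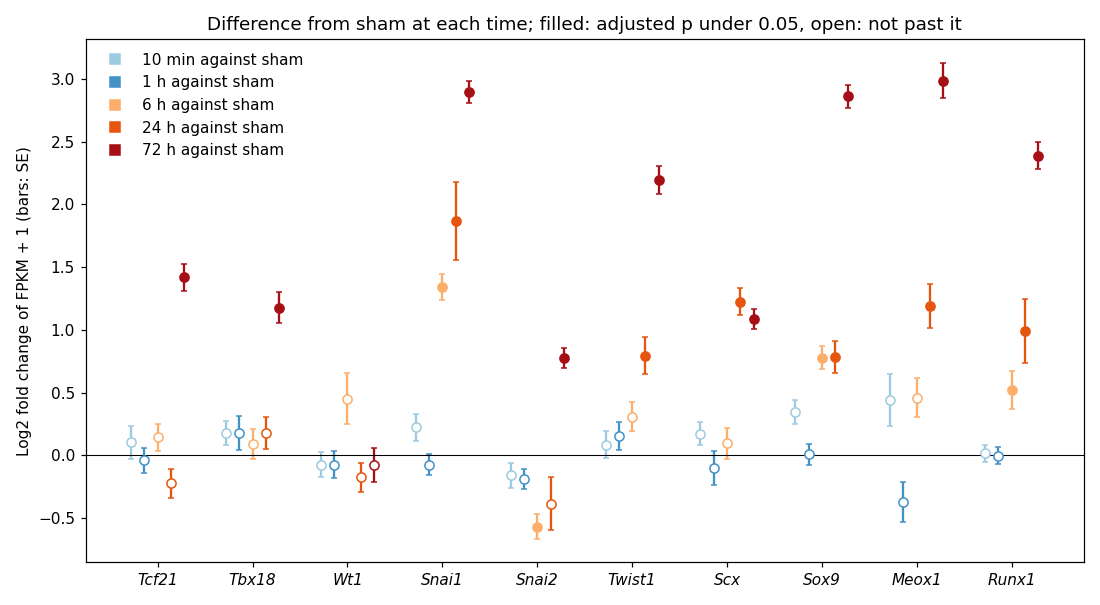
Log2 fold change of FPKM + 1 against sham (vertical axis, bars are the standard error of the fit) for each factor (horizontal axis) and each time point (colours); filled points passed an adjusted p of 0.05 in limma and open points did not. Filled points are absent at 10 min and 1 h and appear for 4 factors at 6 h, 6 at 24 h and 9 at 72 h.

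Among the fibroblast and epicardial identity factors, Tcf21, the bHLH factor needed to form cardiac fibroblasts, was not called before 72 h and then stood 3.09-fold higher than in sham. Its levels were 4.34, 3.39 and 4.25 FPKM in the sham mice, 4.42 to 4.66 FPKM at 6 h, and 3.09, 3.21 and 3.50 FPKM at 24 h. At 72 h they were 11.2, 12.1 and 13.7 FPKM, above every other mouse of the series. The log2 fold change at 72 h was 1.42 ± 0.11 (SE, limma adjusted p = 3.95e-06). At 24 h the log2 fold change was -0.22 ± 0.11 and did not pass the test (limma adjusted p = 0.159). Under median-of-ratios scaling it became -0.35 (limma adjusted p = 0.0417) and under quantile normalization -0.44 (limma adjusted p = 0.0184), so that the fall at 24 h was called under those 2 scalings. The rise from 24 h to 72 h was 1.64 ± 0.11 on the log2 scale (limma adjusted p = 6.55e-05).

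Tbx18, a T-box factor of the embryonic epicardium and of mural cells, was likewise not called before 72 h and rose then. It stood at 1.53, 2.04 and 2.02 FPKM in sham, within 1.74 to 2.88 FPKM over the 12 mice from 10 min to 24 h, and at 4.53, 5.68 and 6.24 FPKM at 72 h. The log2 fold change at 72 h was 1.18 ± 0.12 (SE, limma adjusted p = 3.15e-05), with no overlap between the groups. Of 5 mural cell markers, 0 were called higher and 4 lower at 72 h, beside 53.1% and 24.2% of all genes. Exons of Tbx18 share 970 bases, 20.6% of its exonic length, with a gene model on the opposite strand (D030062O11Rik). The study's methods do not say that the libraries kept strand. If they did not, reads there cannot be assigned to one or the other.

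Wt1, a zinc-finger factor of the epicardium that endothelial cells can also use, was the only one of the 10 with no call in any of the 7 comparisons. Its levels were 0.901, 0.892 and 1.30 FPKM in sham and 1.29, 0.749 and 0.766 FPKM at 72 h. The log2 fold change at 72 h was -0.08 ± 0.13 (SE, limma adjusted p = 0.621). At 24 h it was at 0.735 to 0.902 FPKM. Its highest values were at 6 h, with 2.81, 1.51 and 1.21 FPKM, a log2 fold change of 0.45 ± 0.20 that did not pass (limma adjusted p = 0.133). The 6 h mice overlapped the sham mice, and the mean at 6 h, 1.85 FPKM ± 0.852 (SD, n = 3), included 1 mouse above all others of the series. In a fit of all 18 mice together the difference at 6 h was called (limma adjusted p = 0.0463). After quantile normalization Wt1 was called lower than sham at 72 h (log2 fold change -0.60, limma adjusted p = 0.0035).

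Wt1 and Tbx18 were also set beside other epicardial markers. The summed FPKM of Upk3b, Upk1b, Msln and Lrrn4, surface proteins of the epicardial layer, was 6.08, 14.5 and 15.6 in sham and 70.1, 21.6 and 25.6 at 72 h. This sum varied more than 3-fold within the 72 h group, and at 10 min it was 1.93 to 6.27 FPKM. Of the 8 epicardial markers listed, 6 were tested. At 72 h 4 were called higher and 0 lower, beside 53.1% and 24.2% of all genes. Upk1b was the gene of that list with the largest change (log2 fold change 1.82 ± 0.28, limma adjusted p = 0.00038), followed by Msln (1.44 ± 0.40, limma adjusted p = 0.00937). Relative to the summed epicardial markers, Wt1 differed from sham at 72 h by -1.60 on the log2 scale, with no overlap between the groups (exact permutation test, two-sided, p = 0.1, the smallest that 3 against 3 mice allow). For Tbx18 this relative difference was -0.34 (exact permutation test, p = 0.8). At all earlier times both factors lay above sham on this measure. Wt1 stood at 1.60 at 1 h, and Tbx18 at 1.65 at 10 min and 1.85 at 1 h, each without overlap (exact permutation test, p = 0.1). The other early differences overlapped with sham. Taken against the mean of the log2 marker levels in place of their sum, Wt1 stood lower, at 0.77 at 1 h. Tbx18 then stood at 0.87 at 10 min and 1.02 at 1 h, so the size of these early differences depended on the reference. The log2 fold change of Wt1 itself was -0.07 at 1 h and -0.08 at 72 h, so its relative differences lay mostly in the marker sum.

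Snai1 and Snai2, both of the Snail family, moved in opposite directions at 6 h. Snai1, a zinc-finger repressor of E-cadherin, rose 3.59-fold, and its relative Snai2 fell to 0.530 of its sham mean. Snai1 was at 1.41, 1.52 and 1.45 FPKM in sham and at 4.85, 5.95 and 4.90 FPKM at 6 h. Its log2 fold change at 6 h, 1.34 ± 0.10 (SE, limma adjusted p = 0.000475), was the largest of the 10 factors at that time. Snai1 was then measured at 5.25, 6.58 and 14.3 FPKM at 24 h, and at 17.1, 19.2 and 15.6 FPKM at 72 h. The groups did not overlap with sham at any of these times, and the mouse with 14.3 FPKM stood apart from the other two at 24 h. Against sham it differed by 1.87 ± 0.31 at 24 h (limma adjusted p = 0.00721) and 2.89 ± 0.09 at 72 h (limma adjusted p = 3.33e-08). The step from 24 h to 72 h, 1.02 ± 0.31 (limma adjusted p = 0.0309), lost its call when any 1 of the 72 h mice was left out (limma adjusted p from 0.0687 to 0.101), when the first or the second 24 h mouse was left out (0.0915 and 0.0905), or without the filter on low values (0.0612).

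Snai2 went from 2.19, 2.14 and 2.31 FPKM in sham to 0.977, 1.24 and 1.31 FPKM at 6 h. The fall of 0.57 on the log2 scale (SE 0.10, limma adjusted p = 0.00675) made it the only factor of the 10 that was called lower than sham at any time on FPKM as deposited. At 24 h it was spread between 0.885, 2.42 and 1.30 FPKM, so that the groups overlapped and no change was called (log2 fold change -0.39 ± 0.21, limma adjusted p = 0.179). Without the 24 h mouse at 2.42 FPKM the fall was called there too (log2 fold change -0.62, limma adjusted p = 0.0209). By 72 h Snai2 was at 4.60, 4.73 and 4.16 FPKM, above every other mouse, with a log2 fold change of 0.77 ± 0.08 (limma adjusted p = 2.92e-05), the smallest of the 9 factors that rose.

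Because both genes were measured in the same tissue, their ratio within each mouse was taken, a comparison chosen after the values were seen. There was less Snai1 than Snai2 per length in all 3 sham mice, with ratios of 0.645, 0.711 and 0.628. The ratio was 0.980 to 1.02 at 10 min and 0.601 to 0.945 at 1 h. At 6 h it was 4.96, 4.81 and 3.76. The 24 h mice had ratios of 5.93, 2.72 and 11.0, and the 72 h mice 3.72, 4.06 and 3.76. Every mouse from 6 h on was above every mouse of sham, 10 min and 1 h. The exact permutation p against sham (two-sided) was 0.1 at 10 min, 6 h, 24 h and 72 h, the smallest that 3 against 3 mice allow, and 0.7 at 1 h. Snai3, the remaining member of the family, moved down, from 3.86 FPKM in sham to 0.504 FPKM at 72 h (log2 fold change -1.70 ± 0.11, limma adjusted p = 1.75e-06).

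**Figure D3:**
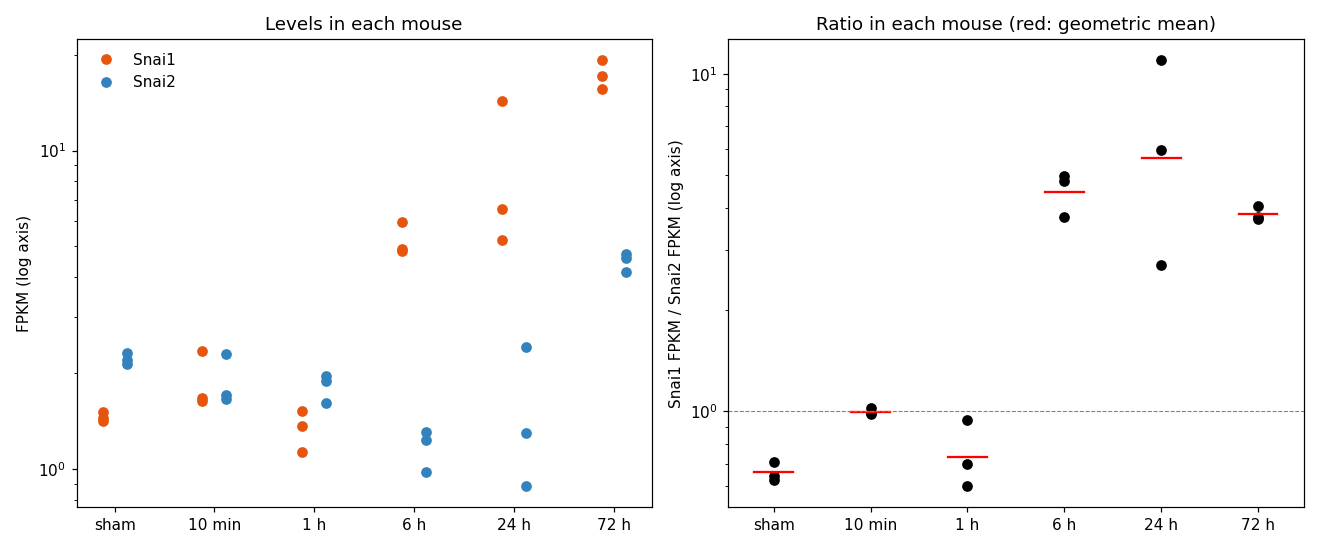
Left, FPKM of Snai1 and Snai2 in each mouse on a log axis, by group. Right, the ratio of Snai1 to Snai2 FPKM in each mouse on a log axis (black points) with the geometric mean of the group (red line) and a dashed line at equal levels. All sham mice lie below the dashed line and all mice from 6 h on lie above it, with ratios from 2.72 to 11.0.

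Twist1 and Scx are bHLH factors that pair with E proteins to bind E-boxes. Twist1, an EMT factor that also acts in mesenchymal development, was called higher than sham at 24 h and at 72 h. It was at 1.32, 1.46 and 1.94 FPKM in sham, at 2.30, 2.19 and 2.01 FPKM at 6 h, at 2.82, 3.60 and 3.97 FPKM at 24 h, and at 10.0, 10.3 and 11.8 FPKM at 72 h. Already at 6 h no mouse overlapped with sham, but the difference did not pass the test (log2 fold change 0.31 ± 0.12, limma adjusted p = 0.0839). At 24 h the log2 fold change was 0.79 ± 0.14 (limma adjusted p = 0.0093), and at 72 h it was 2.19 ± 0.11 (limma adjusted p = 3.93e-07).

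Scx, the tendon factor scleraxis, a regulator of fibrillar collagen genes, had a different course: it was the one factor called at 24 h that was not called higher at 72 h than at 24 h. It was at 1.77, 1.69 and 1.82 FPKM in sham and at 2.09, 2.34 and 1.49 FPKM at 6 h, where the groups overlapped. At 24 h it stood at 4.97, 6.15 and 5.27 FPKM, and at 72 h at 4.96, 4.55 and 5.08 FPKM. The log2 fold change against sham was 1.22 ± 0.11 at 24 h (limma adjusted p = 0.00159) and 1.09 ± 0.08 at 72 h (limma adjusted p = 3.24e-06). Between 24 h and 72 h the difference was -0.14 ± 0.11 and was not called (limma adjusted p = 0.355), although after quantile normalization it was called lower (-0.43, limma adjusted p = 0.0206). The rise from 6 h to 24 h was 1.13 ± 0.16 (limma adjusted p = 0.014). It lost its call without 6 h mouse 2, 6 h mouse 3 or 24 h mouse 2 (limma adjusted p from 0.0501 to 0.061). Of all genes, 1, 1 and 27 were called higher in these 3 fits, beside 1664 with no mouse left out. Scx lies inside the span of Bop1, a ribosome assembly gene on the opposite strand, with no exonic bases in common, and Bop1 also had higher FPKM at 24 h (23.4, 27.0 and 32.5) than in sham (14.2, 12.5 and 13.2). Whether unspliced Bop1 RNA added to the Scx values was not tested.

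Sox9 and Meox1 had, with Snai1, the 3 largest log2 fold changes at 72 h on the FPKM + 1 scale. With a pseudocount of 0.1 the order was Runx1 (3.99), Sox9 (3.76), Snai1 (3.48) and Meox1 (3.22). Sox9, the cartilage factor that controls matrix genes, was at 0.814, 0.684 and 0.930 FPKM in sham, at 2.05, 2.20 and 2.03 FPKM at 6 h, at 1.76, 2.53 and 2.09 FPKM at 24 h, and at 11.3, 13.3 and 11.9 FPKM at 72 h. It rose by 0.78 ± 0.09 on the log2 scale at 6 h (limma adjusted p = 0.00196) and 0.78 ± 0.12 at 24 h (limma adjusted p = 0.00659), and the difference between these times was 0.01 ± 0.13 (limma adjusted p = 0.973). At 72 h it was 2.86 ± 0.09 (limma adjusted p = 4.06e-08), so that the mean, 12.2 FPKM, compared with 0.810 FPKM in sham. Sox9 was also the factor with the smallest unadjusted p at 10 min, when the 3 mice were at 1.07, 1.31 and 1.52 FPKM and did not overlap with sham, but the adjusted p of limma was 0.189 and at 1 h the level was back to 0.693 to 0.899 FPKM.

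Meox1 reached the highest level of the 10 factors at 72 h. It was at 4.80, 3.31 and 5.36 FPKM in sham, at 7.15, 5.99 and 6.27 FPKM at 6 h, at 9.62, 13.3 and 11.5 FPKM at 24 h, and at 43.9, 44.6 and 37.5 FPKM at 72 h. The 6 h mice did not overlap with sham, yet the difference was just outside the threshold (log2 fold change 0.46 ± 0.16, limma adjusted p = 0.0649) and was called under median-of-ratios scaling (limma adjusted p = 0.04) and quantile normalization (limma adjusted p = 0.0438). At 24 h the log2 fold change was 1.19 ± 0.18 (limma adjusted p = 0.00587), and at 72 h it was 2.99 ± 0.14 (limma adjusted p = 3e-07), a ratio of means of 9.36. The rise from 6 h to 24 h, 0.73 ± 0.15 (limma adjusted p = 0.0265), was lost under both scalings (limma adjusted p = 0.0695 and 0.0785). It was also lost without any 1 of the 6 h mice or the second 24 h mouse (limma adjusted p from 0.0617 to 0.098). Of all genes, 403 and 371 were called higher under the scalings and 1 to 191 without these mice, beside 1664 in the main fit.

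Runx1 had the largest ratio of means at 72 h, 21.4, from the lowest sham level. Its levels were 0.194, 0.294 and 0.300 FPKM in sham, 1.30, 0.648 and 0.563 FPKM at 6 h, 0.877, 1.17 and 2.88 FPKM at 24 h, and 4.89, 6.52 and 5.47 FPKM at 72 h. From 6 h on no mouse overlapped with sham. Its log2 fold change was 2.39 ± 0.11 at 72 h (SE, limma adjusted p = 2.16e-07). The earlier calls were less firm. At 6 h it was 0.52 ± 0.15 (limma adjusted p = 0.0389), which was lost when any 1 sham mouse was left out (limma adjusted p from 0.0957 to 0.123), without the filter on low values (0.0589), under quantile normalization (0.0599) and in a fit of all 18 mice together (0.0601). At 24 h it was 0.99 ± 0.26 (limma adjusted p = 0.025), also lost without any 1 sham mouse (limma adjusted p from 0.0704 to 0.0852). Fewer genes of any kind were called higher without 1 sham mouse. At 6 h the counts were 763 to 877, beside 1543 in the main fit, and at 24 h 1262 to 1646, beside 3496.

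Leukocyte markers were also higher at the late time points. The summed FPKM of 7 leukocyte markers (Ptprc, Itgam, Lyz2, Cd68, Csf1r, Laptm5 and Spi1) was 193 to 220 in sham, 509 to 770 at 24 h and 3513 to 4642 at 72 h. All 7 were called higher at 24 h and at 72 h, beside 26.2% and 53.1% of all genes. Within the groups, the mouse with the highest Runx1 at 6 h, 1.30 FPKM, also had the highest sum of 3 neutrophil markers (S100a8, S100a9 and Csf3r), 945 FPKM beside 109 and 361 FPKM in the other two. At 24 h the mouse with 2.88 FPKM of Runx1 and 14.3 FPKM of Snai1 had 911 FPKM of the same markers, beside 199 and 39.9 FPKM. The highest Snai1 and Runx1 did not go with these markers in every group. At 6 h the mouse with the highest Snai1, 5.95 FPKM, had the lowest neutrophil sum, 109 FPKM. At 72 h the mouse with the highest Runx1, 6.52 FPKM, had the lowest leukocyte sum, 3513 FPKM, and a neutrophil sum of 55.4 FPKM beside 47.0 and 56.6 FPKM. The part of leukocyte RNA in the Runx1 and Snai1 values was not tested. Runx2, the bone factor of the same family, rose with Runx1, from 0.228 FPKM in sham to 3.68 FPKM at 72 h (log2 fold change 1.92 ± 0.12, limma adjusted p = 1.12e-06).

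Fibroblast markers of the tissue rose as well at 72 h, so the factors were also expressed relative to them. The summed FPKM of Pdgfra, Dcn, Lum and Dpt, receptor and matrix genes of resident fibroblasts, was 358 ± 19.1 in sham (SD, n = 3), 314 ± 43.7 at 6 h, 276 ± 30.0 at 24 h and 942 ± 96.4 at 72 h. The full list of 6 resident fibroblast markers, which adds Col15a1 and Gsn, summed to 640 ± 43.4 in sham and 1176 ± 85.4 at 72 h. Gsn, the actin-severing protein gelsolin, went the other way, from 263 FPKM ± 23.0 in sham to 112 FPKM ± 36.2 at 72 h. Relative levels depended on which sum was used, and the 6-marker sum was added after the values were seen.

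Of the 8 factors other than Wt1 and Tbx18, 5 lay above all sham mice at 72 h relative to either sum. Their log2 differences from sham were 1.59 for Meox1, 1.50 for Snai1, 1.47 for Sox9, 0.99 for Runx1 and 0.80 for Twist1 with the 4 markers. With all 6 markers the same genes were at 2.11, 2.02, 1.99, 1.51 and 1.32. A pseudocount of 0.1 in place of 1, with the 4 markers, gave 1.83, 2.08, 2.36, 2.59 and 1.32, which put Runx1 first, so the order among these genes is not fixed by the data. How many of all genes would lie above all sham mice on these relative measures was not counted. On FPKM itself, 53.1% of all genes were called higher at 72 h.

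Tcf21, Scx and Snai2 depended on the reference. The log2 ratio of Tcf21 to the 4 markers differed from sham by 0.03 (sham SD 0.12, 72 h SD 0.18), and the groups overlapped (exact permutation test, p = 0.8). Relative to all 6 markers it was 0.54 higher than in sham without overlap (exact permutation test, p = 0.1). Scx lay at -0.30 with the 4 markers, at 0.21 with all 6 and at 0.02 with the 4 markers and a pseudocount of 0.1. Snai2 lay at -0.62 without overlap, at -0.10 with all 6 markers, where the groups overlapped, and at -0.40 with the smaller pseudocount. At 24 h, when both sums were lower than in sham, Scx stood at 1.60 with the 4 markers and 1.80 with all 6, and Snai1 at 2.25 and 2.44. No exact permutation p of this kind was under 0.1, the smallest that 3 against 3 mice allow, and over the 50 tests with the 4-marker sums the smallest Benjamini-Hochberg adjusted p was 0.185.

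**Figure D4:**
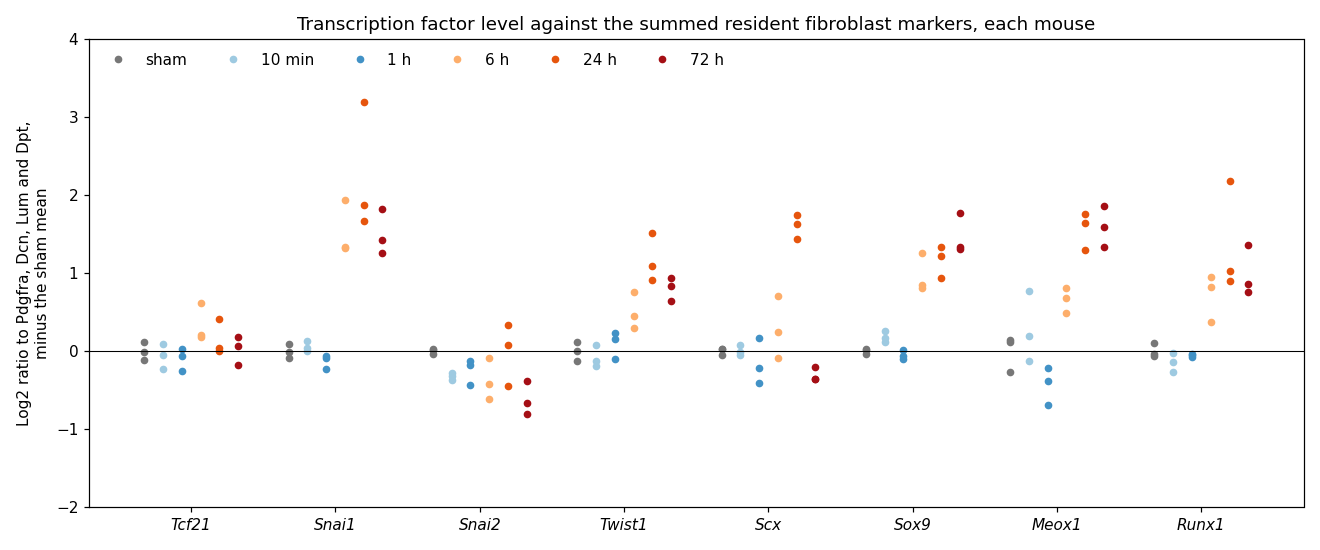
Log2 ratio of each factor to the summed FPKM of Pdgfra, Dcn, Lum and Dpt, with the sham mean set to 0 (vertical axis), in each mouse (points) by factor and group (colours). With these 4 markers, at 72 h Tcf21 lies around 0, Snai1, Twist1, Sox9, Meox1 and Runx1 lie above all their sham mice, and Snai2 and Scx lie below them.

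Marker lists show what else changed in the tissue. Their counts stand beside 11.6% of all genes called higher and 16.8% lower at 6 h. The same shares were 26.2% and 11.4% at 24 h, and 53.1% and 24.2% at 72 h. Of 8 activated fibroblast markers, 2 were called higher and 3 lower at 6 h, 6 higher and 1 lower at 24 h, and all 8 higher at 72 h, when their summed FPKM was 2955 to 3885 beside 98.5 to 149 in sham. Tnc (log2 fold change 6.58 ± 0.21) and Postn (6.37 ± 0.12), matrix proteins of healing wounds, had the largest changes at 72 h (limma adjusted p = 3.56e-08 and 8.73e-09). Of 6 resident fibroblast markers, 5 were called higher and 1 lower at 72 h, led by Col15a1 (log2 fold change 2.58) and Lum (2.43). All 4 proliferation markers were called higher at 72 h and 0 at 6 h or 24 h, and their sum went from at most 0.897 FPKM in sham to 70.9 to 104 FPKM, with Top2a and Mki67 changing most (log2 fold changes 4.65 and 4.46). All 6 cardiomyocyte markers were called lower at 72 h, with a sum of 16701 to 20382 FPKM beside 40557 to 42308 FPKM in sham, Myh6 (-1.88) and Mb (-1.76) most. Of 5 endothelial markers 1 was called higher (Vwf, 0.45) and 2 lower at 72 h, with Kdr (-0.90) the most changed, and among the mural cell markers Abcc9 (-1.83) and Myh11 (-1.31) changed most. Among the leukocyte markers Cd68 (4.95) and Lyz2 (4.53) changed most, and all 3 neutrophil markers were called higher at 6 h, 24 h and 72 h, led at 72 h by S100a9 (3.38) and Csf3r (2.83). FPKM is a share of the library, so a fall of abundant muscle transcripts raises the values of other genes, and the part of this in the changes of the 10 factors was not separated.

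**Figure D5:**
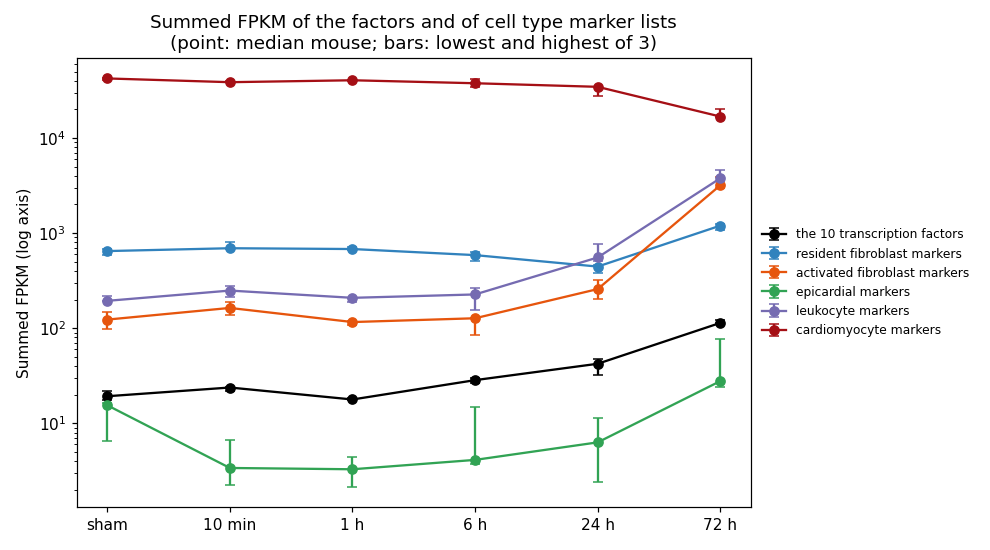
Summed FPKM (log axis) of the 10 factors and of 5 marker lists by group, with the median mouse as a point and the lowest and highest of 3 mice as bars. The factors go from 17.4 to 21.7 FPKM in sham to 112 to 122 FPKM at 72 h, the resident and activated fibroblast and leukocyte sums are also highest at 72 h, and the cardiomyocyte sum is lowest there.

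Genes that act with the 10 factors were read from lists. Over all genes tested, 11.6% were called higher and 16.8% lower at 6 h. At 24 h these shares were 26.2% and 11.4%, and at 72 h 53.1% and 24.2%. Of 16 relatives from the same families, 14 were tested, and at 6 h 2 were called higher and 4 lower. At 24 h the counts of relatives were 5 and 1, and at 72 h they were 7 and 6. The part called higher at 72 h was close to that of all genes. The median log2 fold change of the relatives at 72 h was 0.27, beside 0.29 for all genes tested. Of 7 genes for E proteins and Id proteins, the bHLH partners and their inhibitors, 6 were tested, and 4 were called higher and 1 lower at 72 h. Id2, an inhibitor that ties up E proteins, was the most changed of that list, going from 7.61 to 48.7 FPKM (log2 fold change 2.55 ± 0.15, limma adjusted p = 1.16e-06), followed by Id3 (0.92 ± 0.09, limma adjusted p = 2.22e-05). Of 12 other regulators of fibroblasts and EMT, 11 were tested, and 5 were called higher and 2 lower at 72 h. Prrx2, a homeobox factor of mesenchyme, went from 0.0493 to 8.34 FPKM (log2 fold change 3.15 ± 0.09, limma adjusted p = 2.75e-08). Zeb2, another EMT repressor, which macrophages also use, went from 7.29 to 33.0 FPKM (2.03 ± 0.10, limma adjusted p = 3.04e-07).

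Of 13 genes that textbooks place downstream of these factors, 9 were tested, and at 6 h 1 was called higher and 1 lower. The counts were 5 and 1 at 24 h, beside 26.2% and 11.4% of all genes, and 7 and 2 at 72 h, beside 53.1% and 24.2%. Fn1, fibronectin, an early matrix protein of the wound, rose most, from 14.3 FPKM in sham to 135 FPKM at 24 h and 517 FPKM at 72 h (log2 fold change 5.06 ± 0.16 at 72 h, limma adjusted p = 3.39e-08). Aldh1a2, the retinoic acid enzyme of the epicardium that Wt1 regulates in development, went from 0.971 FPKM in sham to 16.8 FPKM at 24 h and 15.7 FPKM at 72 h (3.08 ± 0.14, limma adjusted p = 2.15e-07), whereas Wt1 itself was not called. The other 4 genes of that list, Col2a1, Col9a1, Col11a2 and Tnmd, which mark cartilage and tendon, did not reach 1 FPKM in any mouse.

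Genes whose 5 log2 fold changes against sham were most like those of each factor were picked by the smallest root mean square difference among 12615 genes. For Tcf21 these were Igfbp4, which encodes a binding protein of insulin-like growth factors, at a difference of 0.10, then Msc, a bHLH factor close to Tcf21, at 0.11, and Slc40a1, the iron exporter. Meox1 was matched by Mest at 0.11, by Loxl1, an enzyme of elastin and collagen cross-linking, at 0.14, and by Panx1. The nearest gene to Runx1 was Pik3r5, a subunit of a lipid kinase of immune cells, at 0.03, followed by Pnp and Tsku. Snai1 was nearest to Ripk3, the necroptosis kinase, at 0.09, then to Nek6 and Snx20, and Sox9 to Cd300a, a leukocyte receptor, at 0.15, then to Ptafr and Panx1. For Twist1 the genes given are Pi4k2b, at 0.07, and Slc9a3r1, for Tbx18 it was F2r, a thrombin receptor, at 0.04, with Fam49a and Mlec, and for Snai2 it was Dhrs3, an enzyme of retinoid metabolism, at 0.06, with Dzip1 and Sp100. Scx had Pira6 at 0.12, Mapk11 and D19Bwg1357e, and for Wt1 the genes given are Zfp655 at 0.12 and Amot. The measure compares 5 group means, and with so many genes some lie close to any pattern.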

How the data were processed

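Polyadenylated left ventricular RNA was taken from 18 mice, 3 per group, and sequenced. The study's methods do not say that the libraries kept strand. Per the submitters' processing notes and the study's methods, reads were trimmed with cutadapt 1.18 and mapped to mm10 with HISAT2 2.1.0, and the authors deposited FPKM per gene from StringTie 1.3.4d. The annotation is not given in the sources used here. Cufflinks and Cuffdiff are also named there, and their test needs the reads. The deposited table holds 18 sample columns, all used. A group comes from the sample titles, where the control mice are the sham mice of the study; 4 column names with a letter slip were read by the single title they match.

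FPKM were not rescaled, and summed to 542418 to 600467 per mouse. No read counts were used; the lowest steps of FPKM put depth at 0.818 to 1.31 times that of the first sham mouse. Genes with at least 1 FPKM in at least 1 mouse were tested as log2(FPKM + 1) with limma 3.58.1 in R 4.3.3 (lmFit, eBayes with trend), each comparison on its own 6 mice, with two-sided p-values adjusted by Benjamini-Hochberg over the genes of that comparison, and the code was tested on simulated data. Genes with the same value in all 6 mice were left out of a fit. The labels do not say more about the mice than their group, so p-values measure the spread between these mice. Ratios were compared with exact permutation tests in Python 3.11.15 with scipy 1.17.1. Relative levels are log2(FPKM + 1) of a factor minus log2 of the summed marker FPKM + 1. The sums hold 4 markers each, and sums of all listed markers were added after seeing the data. The 10 factors and all gene lists were chosen with earlier results of these data known. The genes named were the 10 factors, the 2 genes of each list with the largest change at 72 h against sham, and the 3 genes most like each factor in pattern, without predicted genes; a few of the last are not reported here. Gene overlaps are from GENCODE M21 and promoters from RefSeq. Same-numbered mice were checked for pairing by the correlation of their deviations from the group means, which lay between -0.327 and 0.415, and in no comparison were all 3 above 0.1.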

Additional observations from a re-analysis of the deposited data

How the results depend on the processing

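The fits were repeated under 14 alternatives, and no difference that had been called changed sign. Of 29 calls of the 10 factors over 7 comparisons, 24 were kept under all of them, among them all 9 at 72 h against sham. The number of factors called lower at 24 h against sham, 0, became 1 with median-of-ratios scaling (Tcf21) and 2 with quantile normalization (Tcf21 and Wt1), and was 0 to 1 with 1 mouse left out. At 72 h against sham it became 1 with quantile normalization (Wt1), and at 72 h against 24 h 1 with the same setting (Scx). Factors called higher at 24 h against 6 h, 2, became 1 with median-of-ratios scaling, 1 with quantile normalization, 0 with the replicate block, and 0 to 3 with 1 mouse left out. Factors called lower there became 1 with each scaling (Tcf21) and 2 in a fit of all 18 mice (Tcf21 and Wt1). The cause was not tested. The median relative level of the factors took Wt1 and Tbx18 against epicardial markers and the others against fibroblast markers. With a pseudocount of 0.1, this median moved from 0.036 to 0.128 at 10 min and from 0.414 to 0.764 at 72 h. With all markers of each list, a choice made after seeing the data, the median moved from -0.07 to -0.12 at 1 h. At 72 h it moved from 0.41 to 0.93. Scx at 72 h then went from -0.30 to 0.21. The replicate numbers do not pair the mice by the check used, and with the replicate block the only other lost call was that of Runx1 at 6 h (limma adjusted p = 0.0624). With 3 mice per group and levels near 1 FPKM, small changes of Runx1, Sox9 and Wt1 are poorly measured, and depth in reads is unknown.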
